A study of Mus musculus with 12 samples.

Results

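The DNA damage checkpoint kinases and mediators described here are 10 genes: the kinases Atm, Atr, Chek1 and Chek2, the break sensors Nbn, Mre11a and Rad50, and the mediators Mdc1, Trp53bp1 and Topbp1. They were taken by symbol from the deposited gene table, 10 of 54532 genes, by a rule that used no measured value. Earlier results of these data were known when the genes were chosen. All 10 passed the filter on low counts. The study sequenced poly(A)-selected RNA from E14 cells, a mouse embryonic stem cell line, grown on gelatin in serum with LIF and the 2i kinase inhibitors. Cells of 3 genotypes were given doxorubicin at 1 uM for 6 h and then drug-free medium, or DMSO vehicle for 6 h and then fresh medium. Doxorubicin is a topoisomerase II poison that breaks DNA. The 6 groups of 2 libraries were p53 KO cells with doxorubicin and with vehicle, Dux KO cells with doxorubicin and with vehicle, and wild-type (WT) cells with doxorubicin and with vehicle. Dux is a transcription factor of the 2-cell embryo. The libraries of each knockout come from cell lines 1 and 2, so their spread also holds the difference between lines, while the WT libraries carry no line number and are called a and b. The sources used here state neither the kind of edit nor the time in drug-free medium.

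In the cell, NBN, MRE11 and RAD50 form the complex that binds broken DNA ends and recruits the kinase ATM, whereas ATR is recruited to stretches of single-stranded DNA and is switched on by TOPBP1. ATM passes the signal mainly to CHK2 (Chek2) and ATR to CHK1 (Chek1), and these kinases hold the cell cycle and act on p53. MDC1 and 53BP1 (Trp53bp1) gather on the chromatin beside a break and keep the signal in place. Much of this signalling works through phosphorylation of proteins already present, which RNA levels do not report.

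Total counts ran from 23270358 to 56795858 per library, and the 10 genes had between 674 and 13428 counts each in any library. The count column of Dux KO control 2 repeated that of Dux KO doxorubicin 1 in 54532 of 54532 genes. Its levels were therefore recovered from the authors' FPKM column for that library, and tests used the other 11 libraries, with the lone Dux KO control assumed to vary like the other groups. Trp53 RNA was 95.5 and 42.6 CPM (counts scaled to the TMM-corrected library size) in p53 KO cells with drug, 72.4 and 39.8 CPM with vehicle, and 133 to 193 CPM in the 4 WT libraries. Duxf3, the gene for Dux, had 0 counts in every Dux KO library, against 670 and 685 counts in WT cells with drug and 2 and 0 counts with vehicle. Mdm2, a target of p53, was 69.8 and 52.4 CPM in p53 KO cells with drug, 630 and 685 CPM in Dux KO cells with drug and 949.9 and 947 CPM in WT cells with drug. Summed stem cell markers (8 genes) were 2322 to 3013 CPM in p53 KO, 1878 to 2144 CPM in Dux KO and 826 to 954 CPM in WT cells with drug, against 4576 to 6106 CPM in the vehicle libraries. Summed 2-cell-like markers (7 genes) were 1317 to 1578 CPM in WT cells with drug and at most 63.2 CPM in every other group. Fibroblast markers (8 genes) summed to 26.9 to 30.2 CPM in WT cells with drug, and 6 of the 8 were under 1 CPM there in both libraries. They summed to 4.79 to 6.06 CPM in WT cells with vehicle, where Dcn, Lum and Twist2 were at 0. Primitive endoderm markers (6 genes) summed to 25.6 to 26.6 CPM in WT cells with drug and 5.83 to 5.91 CPM with vehicle. Trophectoderm markers (7 genes) summed to 106 to 139 CPM in WT cells with drug and 77.2 to 78.0 CPM with vehicle. These markers moved with the drug alongside the genes below, and their part in the results was not tested. In RNA from whole cultures, fewer cells of a type and less RNA per cell cannot be told apart.

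The promoters of Chek1, Chek2 and Mdc1 are shown because these 3 genes differed in their drug response between p53 KO and WT cells. Each is the RefSeq window of 300 bases (build GRCm38.p6), 250 before the start and 50 from it on, written along the gene from 5′ to 3′. Capitals mark the searched motifs that were found on either strand. The Chek1 window is chr9:36726609-36726908 on the minus strand, the Chek2 window chr5:110839733-110840032 on the plus strand, and the Mdc1 window chr17:35841248-35841547 on the plus strand.
Chek1: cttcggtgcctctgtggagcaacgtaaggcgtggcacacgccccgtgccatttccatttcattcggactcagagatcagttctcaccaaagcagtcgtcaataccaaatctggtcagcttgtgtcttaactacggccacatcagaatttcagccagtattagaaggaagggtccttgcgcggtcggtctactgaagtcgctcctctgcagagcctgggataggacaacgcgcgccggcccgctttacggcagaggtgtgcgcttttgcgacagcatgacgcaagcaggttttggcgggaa
Chek2: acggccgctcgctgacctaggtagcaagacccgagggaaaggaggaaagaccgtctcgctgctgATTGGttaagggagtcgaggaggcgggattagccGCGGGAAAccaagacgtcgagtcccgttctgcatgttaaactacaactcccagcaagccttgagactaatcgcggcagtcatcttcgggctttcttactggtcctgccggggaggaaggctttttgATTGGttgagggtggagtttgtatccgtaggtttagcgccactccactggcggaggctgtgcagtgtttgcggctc
Mdc1: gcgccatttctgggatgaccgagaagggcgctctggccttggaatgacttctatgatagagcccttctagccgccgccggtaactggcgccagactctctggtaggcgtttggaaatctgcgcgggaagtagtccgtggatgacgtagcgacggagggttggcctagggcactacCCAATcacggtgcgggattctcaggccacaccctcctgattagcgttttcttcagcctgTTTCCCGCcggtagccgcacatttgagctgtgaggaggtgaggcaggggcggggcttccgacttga

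The motifs searched, on both strands, were the E2F letters TTTGGCGC and TTTCCCGC, the CHR letters TTTGAA and TTCGAA, the NF-Y letters CCAAT, and the p53 element. Of the 10 genes, 8 had a promoter in the RefSeq table. Chek2 holds TTTCCCGC on the opposite strand, its first base at position -152 from the start, and CCAAT on the opposite strand at -186 and -26. Mdc1 holds TTTCCCGC at -16 and CCAAT at -75, both on the gene's strand, and Chek1 holds none of the motifs. An E2F match was present in 2 of the 8 promoters and in 1.56% of all 32851 promoters of the table. The 8 promoters held 55.3% to 73.7% GC, against a median of 52.7% over all, and the shares are not matched for GC. CCAAT was present in 4 of 8 (Atm, Chek2, Mdc1 and Mre11a) against 37.4% of all, and a CHR match in 1 of 8 (Atr) against 19.2%. Neither the p53 element, held by 0.0731% of all promoters, nor its half-site, held by 8.36%, matched in any of the 8. TTCGAA reads the same on both strands, so the Atr match was found on each at the same bases, and no other matches overlapped in the 8 windows. Only exact matches lying wholly inside a window were counted. Near its end, the Chek1 window holds letters that differ from the first E2F motif by 1 letter. It also holds part of the second E2F motif on the opposite strand, and the window ends before that motif is complete. The absence in Chek1 thus covers exact matches only, and whether it has an E2F-type site was not tested. These matches describe letters in a window, and no binding was measured.

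Across the 3 genotypes, doxorubicin lowered a part of the set. With the lone deposited Dux KO control, it raised 0 of the 10 past the threshold of an edgeR adjusted p under 0.05. DESeq2 called 0 rises too, and 0 had an unadjusted p under 0.05 in that direction with either tool. The absence of rises in Dux KO cells depended on that control. With the recovered control added and the cell line as a replicate block, edgeR called rises of Rad50 and Mdc1 there. Both values were higher still with the recovered control in place of the deposited control, as given below. In p53 KO cells 4 of 10 genes fell (Nbn, Chek2, Chek1 and Atr), in Dux KO cells 3 fell (Chek1, Nbn and Atr), and in WT cells 6 fell (Chek1, Atr, Nbn, Mdc1, Topbp1 and Mre11a). Atr, Chek1 and Nbn thus fell in every genotype, while Chek2 fell in p53 KO cells and Mdc1, Topbp1 and Mre11a fell in WT cells. Among all 28643 genes tested, 8.09% fell and 9.31% rose in p53 KO cells, 11.9% fell and 14.5% rose in Dux KO cells, and 23.4% fell and 29.0% rose in WT cells. Among the 14622 genes with a mean of at least 5 CPM, the range in which all 10 lie, 15.1% fell in p53 KO, 20.1% in Dux KO and 37.0% in WT cells. The median log2 change of the 10 was -0.25 in p53 KO, -0.25 in Dux KO and -0.34 in WT cells, beside 0.18, 0 and 0.13 over all genes tested. The scaling bears on the smaller falls: with RLE scaling the all-gene median in WT cells was 0.23 instead of 0.13. The all-gene median also depends on the genes kept and the scale. Limma on log2(FPKM + 1) over 14614 filtered genes gave medians of 0.14 in p53 KO, 0 in Dux KO and -0.16 in WT cells. The median of the 10 genes on that scale is not given here.

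**Figure D1:**
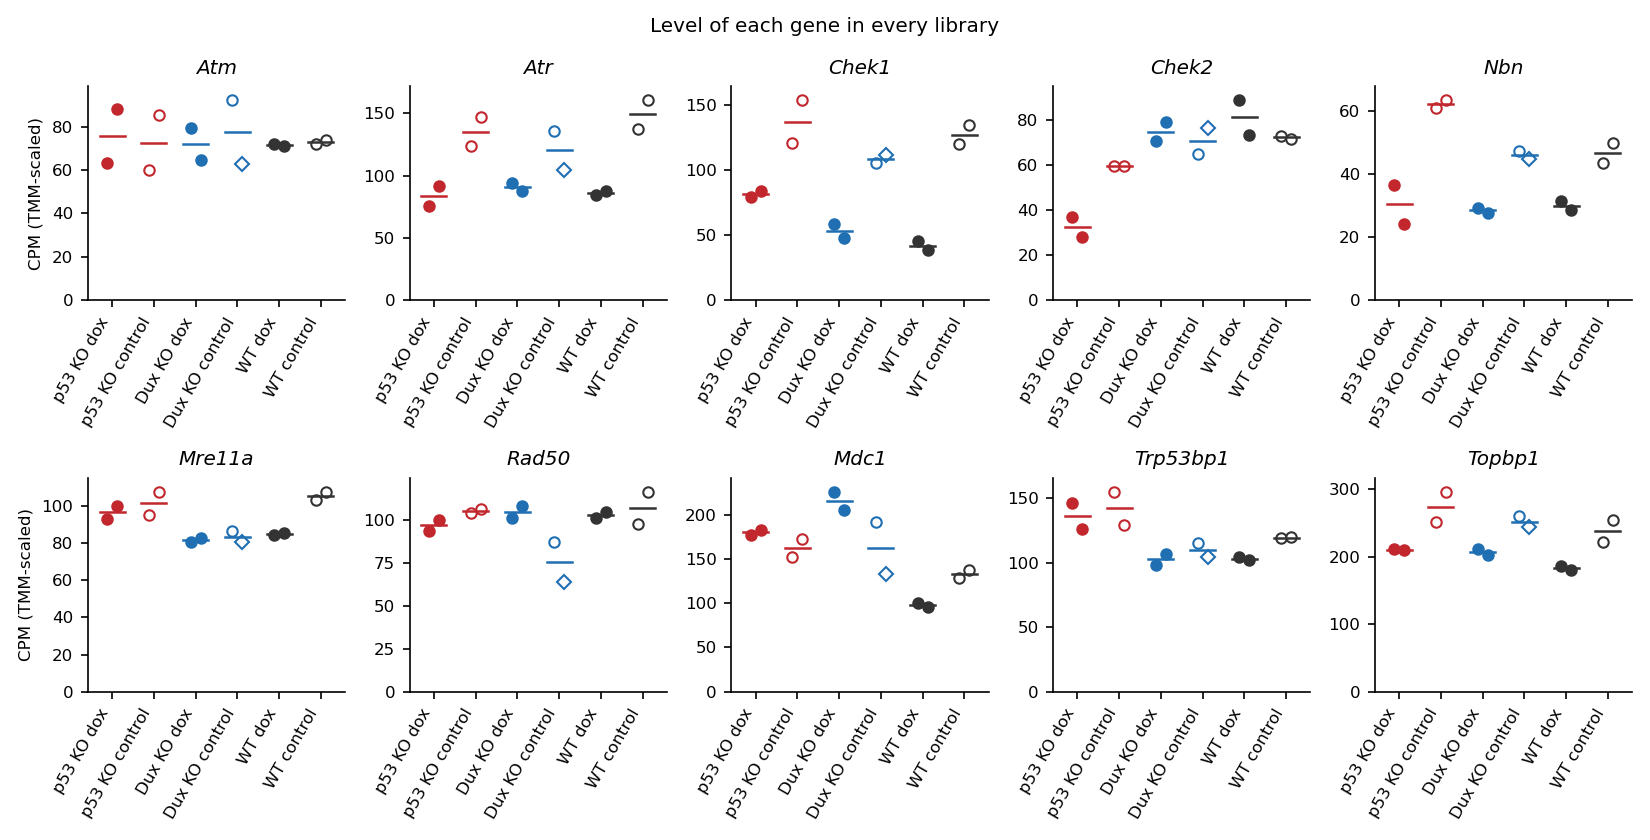
TMM-scaled CPM of each gene in every library, with 1 panel a gene and each axis starting at 0. Filled points are doxorubicin libraries, open points vehicle libraries, the open diamond is Dux KO control 2 recovered from FPKM, and the line is the mean of 2 libraries. Chek1 is lowest in WT cells with drug (45.4 and 38.5 CPM) and Chek2 is lowest in p53 KO cells with drug (36.8 and 28.0 CPM).

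Of the apical kinases, Atm showed no drug response past the threshold in any genotype. Atm (ENSMUSG00000034218, chr9:53439149-53536740, minus strand, GRCm38/mm10) had 63.1 and 88.2 CPM in p53 KO cells with drug and 59.8 and 85.1 CPM with vehicle. It had 79.3 and 64.8 CPM in Dux KO cells with drug and 92.3 and 62.6 CPM with vehicle. In WT cells it had 72.0 and 71.0 CPM with drug and 72.2 and 73.7 CPM with vehicle. The 4 WT libraries lay between 71.0 and 73.7 CPM. In the knockouts drug and vehicle groups overlapped, and the spread followed the lines: line 2 stood above line 1 in both p53 KO groups, and line 1 above line 2 in both Dux KO groups. The log2 change with drug was 0.06 in p53 KO (edgeR adjusted p = 0.866), -0.36 in Dux KO (edgeR adjusted p = 0.334) and -0.03 in WT cells (edgeR adjusted p = 0.917). In WT cells the interval of 2 SE either side ran from -0.44 to 0.38, and a change within it was not detectable at this spread.

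Atr, the kinase of stalled replication forks, fell in all 3 genotypes. Atr (ENSMUSG00000032409, chr9:95857597-95951781, plus strand) had 76.1 and 91.9 CPM in p53 KO cells with drug, against 124 and 147 CPM with vehicle. In Dux KO cells it had 93.9 and 88.0 CPM with drug, against 136 and 105 CPM with vehicle, and in WT cells 84.9 and 87.4 CPM with drug, against 138 and 161 CPM with vehicle. Every drug library was below every vehicle library, and the ranges of the WT and Dux KO drug groups both met that of the p53 KO drug group. The log2 change was -0.69 (SE 0.15, edgeR adjusted p = 0.0149) in p53 KO, -0.58 (SE 0.17, edgeR adjusted p = 0.0358) in Dux KO and -0.79 (SE 0.15, edgeR adjusted p = 0.00183) in WT cells. The Dux KO call was lost with the recovered control 2 added (-0.42, edgeR adjusted p = 0.0905) and without any 1 WT or Dux KO library (edgeR adjusted p from 0.0540 to 0.409). Among the fits that left out 1 library, the value moved most with control 2 in place of control 1, to -0.21. Over the other 9 alternatives the Dux KO value of Atr ran from -0.55 to -0.07, and 3 of them kept the call. The -0.07 came from limma on log2(FPKM + 1), a scale on which the added 1 shrinks changes at low FPKM. Without p53 KO control 2, the p53 KO fall was -0.56 (edgeR adjusted p = 0.0584). The difference between the p53 KO and WT responses was 0.10 (edgeR adjusted p = 0.782), with 2 SE either side running from -0.31 to 0.51. The strand setting of the counting was not stated in the sources, and the antisense gene Gm16794 inside Atr had 15.1% to 30.4% as many counts as Atr, so part of the count may belong to either gene.

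Chek1, the effector kinase that ATR activates, had the largest fall of the 10 genes in WT cells. Chek1 (ENSMUSG00000032113, chr9:36708482-36727065, minus strand) had 79.2 and 83.6 CPM in p53 KO cells with drug, against 121 and 154 CPM with vehicle. In Dux KO cells it had 58.7 and 47.9 CPM with drug, against 106 and 112 CPM with vehicle. In WT cells it had 45.4 and 38.5 CPM with drug, against 119.9 and 134 CPM with vehicle. No drug library overlapped a vehicle library. The drug groups lay apart too, with p53 KO highest, Dux KO between and WT lowest, while the WT and p53 KO vehicle groups overlapped. The log2 change was -0.75 (SE 0.16, edgeR adjusted p = 0.0169) in p53 KO, -0.99 (SE 0.19, edgeR adjusted p = 0.00596) in Dux KO and -1.60 (SE 0.17, edgeR adjusted p = 8.65e-05) in WT cells, where the drug-treated level was 0.33 of the vehicle level. The p53 KO response differed from the WT response by 0.85 (SE 0.23, edgeR adjusted p = 0.0327), a smaller fall without p53. That difference was lost with RLE scaling (0.73, edgeR adjusted p = 0.0544) and without any 1 of the 4 WT libraries or p53 KO control 1 (edgeR adjusted p from 0.0553 to 0.129). Without p53 KO control 2, the p53 KO fall itself was -0.57 (edgeR adjusted p = 0.0668). The Dux KO response differed from the WT response by 0.61 (edgeR adjusted p = 0.21). With the cell line as a replicate block the value was 0.75, and that fit sets 1 Dux KO drug library against 1 control, both of line 1.

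Genes of S phase moved beside Chek1. Of 24 G1/S and replication genes, 3 fell in p53 KO cells with drug (median log2 -0.39), 13 fell and 1 rose in Dux KO cells (median -0.68), and 19 fell in WT cells (median -1.0). Of 22 G2/M genes, 9 fell in p53 KO, 8 fell in Dux KO, and 9 fell and 3 rose in WT cells. Among all genes tested, 8.09% fell in p53 KO, 11.9% in Dux KO and 23.4% in WT cells. Among genes with a mean of at least 5 CPM, 15.1%, 20.1% and 37.0% fell in the same order. With the cell line as a replicate block, 15 of the 24 G1/S and replication genes fell in p53 KO cells, where 16.4% of all genes tested fell. The part of these lists in the Chek1 values was not tested. By the rule of highest correlation over 12 libraries among 14622 genes, the genes most like Chek1 in log2 CPM, over libraries that share drug and genotype groups, were Gm25951 (r = 0.991), Pms1 (r = 0.990) and Orc3 (r = 0.990). Pms1 encodes a mismatch repair protein and Orc3 a subunit of the origin recognition complex. Gm25951 is a microRNA locus within Rcc2, so its counts cannot be told apart from those of Rcc2.

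Chek2, the effector kinase that ATM activates, was the member whose drug response set p53 KO cells apart in the downward direction. Chek2 (ENSMUSG00000029521, chr5:110839979-110874145, plus strand) had 36.8 and 28.0 CPM in p53 KO cells with drug, against 59.7 and 59.7 CPM with vehicle. In Dux KO cells it had 70.8 and 79.0 CPM with drug, against 65.2 and 76.7 CPM with vehicle. In WT cells it had 89.0 and 73.6 CPM with drug, against 73.2 and 71.6 CPM with vehicle. The p53 KO drug libraries were the lowest of all 12. The Dux KO groups overlapped, and in WT cells the lower drug library stood just above the higher vehicle library. The log2 change was -0.88 (SE 0.16, edgeR adjusted p = 0.00874) in p53 KO, 0.20 (edgeR adjusted p = 0.495) in Dux KO and 0.17 (edgeR adjusted p = 0.399) in WT cells. Of the 9 alternatives that left out no library, 6 kept the p53 KO call, with values from -0.91 to -0.34. The p53 KO response differed from the WT response by -1.05 (SE 0.23, edgeR adjusted p = 0.0121). Leaving out WT control a, WT control b or WT drug a raised that adjusted p to 0.0516, 0.0574 and 0.0531. Of the 9 other alternatives, 8 kept the call of this p53 KO difference, with values from -1.17 to -0.48. The -0.34 and -0.48 are on the log2(FPKM + 1) scale, where the added 1 shrinks changes at low FPKM. The Dux KO response differed from the WT response by 0.03 (edgeR adjusted p = 0.999), with 2 SE either side running from -0.47 to 0.54.

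The ratio of Chek2 to Chek1 counts within a library needs no scaling between libraries, though it is not corrected for gene length. It was 0.465 and 0.334 in p53 KO cells with drug, against 0.495 and 0.388 with vehicle. It was 1.21 and 1.65 in Dux KO cells with drug, against 0.616 and 0.686 with vehicle, and 1.96 and 1.91 in WT cells with drug, against 0.610 and 0.533 with vehicle. The ratio was lower with drug in both p53 KO lines, by less than the difference between the lines, and higher with drug in every library of the other genotypes. The genes most like Chek2 over the 12 libraries were Vps41 (r = 0.955), Srbd1 (r = 0.938) and Dapk1 (r = 0.931), and those most like Atm were 1500004A13Rik (r = 0.903), Ep400 (r = 0.891) and 5830417I10Rik (r = 0.883). Vps41 encodes a subunit of a vesicle tethering complex, Dapk1 a calmodulin-dependent kinase and Ep400 a chromatin remodeller. The loci 1500004A13Rik and 5830417I10Rik overlap on opposite strands, so they may share reads.

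**Figure D2:**
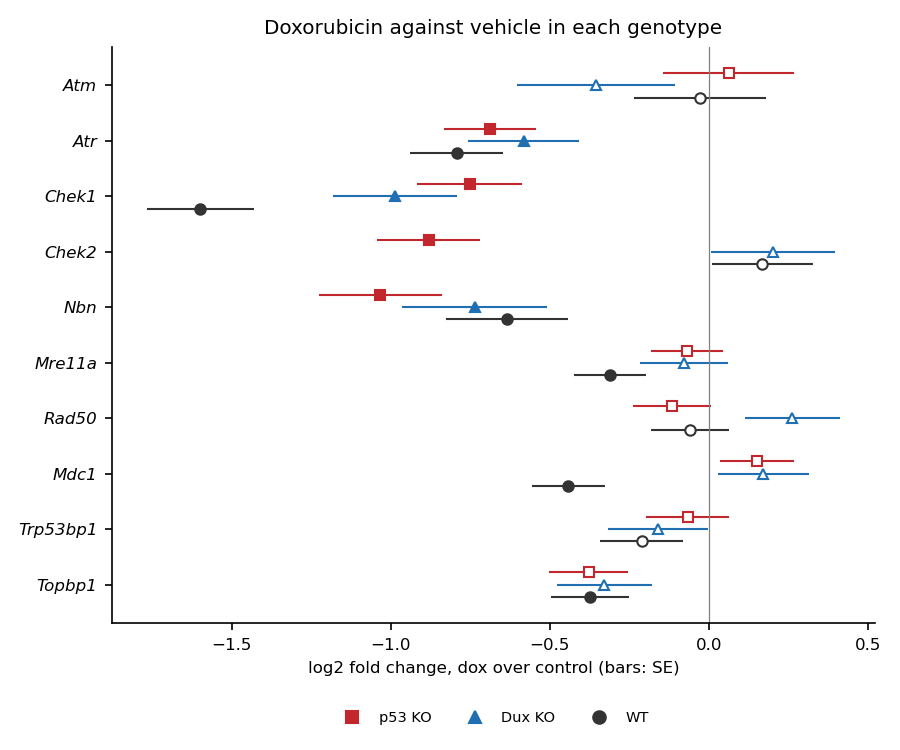
Log2 fold change of doxorubicin over vehicle for each gene, with bars of 1 SE. Red squares are p53 KO, blue triangles Dux KO and black circles WT cells, and filled symbols passed the edgeR threshold. Chek1 shows its largest fall in WT cells (-1.60), Chek2 falls in p53 KO cells (-0.88), and Atr and Nbn fall in all 3 genotypes.

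The 3 subunits of the break-sensing complex did not move alike. Nbn encodes the subunit that carries ATM to the complex, Mre11a its nuclease and Rad50 the ATPase that bridges DNA ends. Nbn (ENSMUSG00000028224, chr4:15957925-15992589, plus strand) had 36.6 and 24.1 CPM in p53 KO cells with drug, against 60.8 and 63.4 CPM with vehicle. It had 29.2 and 27.6 CPM in Dux KO cells with drug, against 47.4 and 44.7 CPM with vehicle, and 31.5 and 28.4 CPM in WT cells with drug, against 43.5 and 49.7 CPM with vehicle. Drug and vehicle libraries did not overlap in any genotype, and the 3 drug groups overlapped. The log2 change was -1.03 (SE 0.19, edgeR adjusted p = 0.00949) in p53 KO, -0.74 (SE 0.23, edgeR adjusted p = 0.0411) in Dux KO and -0.64 (SE 0.19, edgeR adjusted p = 0.0211) in WT cells. Leaving out WT control b, WT drug a or WT drug b ended the WT call (edgeR adjusted p from 0.0603 to 0.122), and leaving out any 1 WT or Dux KO library ended the Dux KO call of Nbn.

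Mre11a (ENSMUSG00000031928, chr9:14784654-14837123, plus strand) had 93.0 and 99.9 CPM in p53 KO cells with drug and 94.9 and 107 CPM with vehicle. It had 80.6 and 82.4 CPM in Dux KO cells with drug and 86.1 and 80.2 CPM with vehicle, and 84.3 and 85.5 CPM in WT cells with drug, against 103 and 108 CPM with vehicle. The groups overlapped in both knockouts and lay apart in WT cells. The WT fall was -0.31 on the log2 scale (SE 0.11, edgeR adjusted p = 0.0449) and was lost with RLE scaling (-0.21, edgeR adjusted p = 0.155), DESeq2 (-0.21, adjusted p = 0.244), with the recovered control 2 added (edgeR adjusted p = 0.0778) and without any 1 WT library or either Dux KO drug library (edgeR adjusted p from 0.0676 to 0.184). Ankrd49, on the opposite strand, overlaps the gene and had 35.6% to 66.4% as many counts as Mre11a. Rad50 (ENSMUSG00000020380, chr11:53649519-53707319, minus strand) had 93.8 and 100.3 CPM in p53 KO cells with drug and 104 and 106 CPM with vehicle. It had 101 and 108 CPM in Dux KO cells with drug and 87.4 and 63.9 CPM with vehicle, and 101 and 105 CPM in WT cells with drug and 98.1 and 117 CPM with vehicle. The 2 Dux KO vehicle libraries were the lowest of the 12 for Rad50. Its log2 change was -0.12 in p53 KO, 0.26 in Dux KO (edgeR adjusted p = 0.239) and -0.06 in WT cells. With the recovered control 2 and the cell line as a replicate block, the Dux KO value was 0.48 (edgeR adjusted p = 0.0217). With control 2 in place of control 1 and no block, Rad50 had 0.71 (edgeR adjusted p = 0.00779).

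Among the mediators, Mdc1 was higher with drug in both knockouts than in WT cells. MDC1 binds phosphorylated H2AX beside a break and recruits further factors. Mdc1 (ENSMUSG00000061607, chr17:35841515-35859670, plus strand) had 177 and 183 CPM in p53 KO cells with drug and 152 and 172 CPM with vehicle. In Dux KO cells it had 226 and 205 CPM with drug and 192 and 133 CPM with vehicle. In WT cells it had 100.3 and 95.9 CPM with drug, against 128 and 138 CPM with vehicle. Drug libraries lay below vehicle libraries in WT cells and above them in both knockouts. The log2 change was 0.15 (edgeR adjusted p = 0.391) in p53 KO, 0.17 (edgeR adjusted p = 0.422) in Dux KO and -0.44 (SE 0.12, edgeR adjusted p = 0.0114) in WT cells. The WT fall of Mdc1 did not pass without WT control b (-0.39, edgeR adjusted p = 0.0823) or with the recovered Dux KO control 2 added (edgeR adjusted p = 0.0599). The p53 KO response differed from the WT response by 0.59 (SE 0.16, edgeR adjusted p = 0.0338), which RLE scaling (0.47, edgeR adjusted p = 0.0715) and DESeq2 (0.47, adjusted p = 0.0832) did not keep, nor did adding the recovered control 2 (edgeR adjusted p = 0.131) or leaving out any 1 WT library, p53 KO control 1 or either Dux KO drug library (edgeR adjusted p from 0.0542 to 0.132). The Dux KO response differed by 0.61 (edgeR adjusted p = 0.0906). With the cell line as a replicate block it differed by 0.68, from 1 Dux KO drug library and 1 control, both of line 1. With the block and the recovered control 2, the Dux KO change of Mdc1 itself was 0.42 (edgeR adjusted p = 0.0186), and with control 2 in place of control 1 it was 0.69 (edgeR adjusted p = 0.00688).

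Trp53bp1 encodes 53BP1, which shields broken ends from resection. Trp53bp1 (ENSMUSG00000043909, chr2:121193281-121271407, minus strand) had 146 and 126 CPM in p53 KO cells with drug and 155 and 129.7 CPM with vehicle. It had 98.7 and 107 CPM in Dux KO cells with drug and 115 and 105 CPM with vehicle, and 104 and 102 CPM in WT cells with drug and 119 and 120.0 CPM with vehicle. Groups overlapped in the knockouts and lay apart in WT cells, where the log2 change was -0.21 (edgeR adjusted p = 0.2, and 0.0481 with the cell line as a replicate block). Adding the recovered library to that blocked fit ended the Trp53bp1 call (edgeR adjusted p = 0.139). The p53 KO and Dux KO values were -0.07 and -0.16. Tubgcp4, on the opposite strand, overlaps Trp53bp1 and had 40.9% to 78.8% as many counts, so its reads may be mixed in.

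Topbp1, the activator of ATR, fell in WT cells and had values of like size in the knockouts. Topbp1 (ENSMUSG00000032555, chr9:103305215-103350428, plus strand) had 211 and 210.5 CPM in p53 KO cells with drug, against 251 and 297 CPM with vehicle. It had 212 and 203 CPM in Dux KO cells with drug, against 261 and 244 CPM with vehicle, and 187 and 181 CPM in WT cells with drug, against 222 and 254 CPM with vehicle. Drug libraries lay below vehicle libraries in each genotype. The log2 change was -0.38 (edgeR adjusted p = 0.0646) in p53 KO, -0.33 (edgeR adjusted p = 0.139) in Dux KO and -0.37 (SE 0.12, edgeR adjusted p = 0.0303) in WT cells. With the cell line as a replicate block the p53 KO value of Topbp1 was -0.37 (edgeR adjusted p = 0.0141), and it also passed with RLE scaling (edgeR adjusted p = 0.0498), DESeq2 (adjusted p = 0.0473) and without p53 KO control 1 (edgeR adjusted p = 0.0451). The WT call was lost with RLE scaling (-0.27, edgeR adjusted p = 0.0845), with DESeq2 (-0.28, adjusted p = 0.139) and without WT control b, WT drug a or WT drug b (edgeR adjusted p from 0.0715 to 0.202). The difference of its response from that of WT cells lay, at 2 SE either side, between -0.35 and 0.34 in p53 KO and between -0.34 and 0.43 in Dux KO cells.

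Levels of different genes can be set side by side only per length. With vehicle, WT cells held 27.4 CPM per kb of exon for Chek1 and 24.1 for Chek2, against 7.05 for Atm and 6.32 for Atr. The exon length joins the exons of all annotated transcripts, 23.6 kb for Atr and 10.3 kb for Atm. The other 6 genes ran from 8.44 (Trp53bp1) to 21.2 (Topbp1) on that scale. The deposited FPKM divide by the whole gene span, and the sources do not state whether reads in introns were counted. Per kb of span, Mdc1 (7.34) and Chek1 (6.84) were highest and Atm lowest (0.747). Atr had 1.59 per kb of span, so the order of Atm and Atr depends on the length used.

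Each knockout was also compared with WT cells under the same treatment. With vehicle, 0 of 10 genes passed with edgeR in p53 KO and 0 of 10 in Dux KO cells, where 0.887% and 1.00% of all genes tested passed. DESeq2 also called 0 of 10 in each, and 1 gene in each had an unadjusted p under 0.05 with either tool. In edgeR that gene was Mdc1 for both knockouts, higher than in WT cells by 0.28 in p53 KO and 0.52 in Dux KO cells. The log2 values with vehicle ran from -0.28 (Chek2) to 0.41 (Nbn) in p53 KO and from -0.30 (Rad50) to 0.52 (Mdc1) in Dux KO cells. With the cell line as a replicate block, Mdc1 in Dux KO cells had 0.46, a value that rests on control 1 and on the line difference seen with drug. Rad50 in Dux KO cells passed with the block and the recovered control 2 (-0.52, edgeR adjusted p = 0.0492).

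With doxorubicin, 4 of 10 genes differed between p53 KO and WT cells, where 43.7% of all genes tested did. Chek2 was lower in p53 KO cells (log2 -1.33, SE 0.16, edgeR adjusted p = 0.000239), at 0.40 of the WT level. Chek1 (0.96, SE 0.17, edgeR adjusted p = 0.00162), Mdc1 (0.87, SE 0.12, edgeR adjusted p = 0.000387) and Trp53bp1 (0.40, SE 0.13, edgeR adjusted p = 0.0349) were higher. The Trp53bp1 call was lost with RLE scaling (0.28, edgeR adjusted p = 0.105), with DESeq2 (0.28, adjusted p = 0.162), with the recovered control 2 added (edgeR adjusted p = 0.0516) and without any 1 WT library, p53 KO drug 1 or either Dux KO drug library (edgeR adjusted p from 0.0544 to 0.137). With doxorubicin in Dux KO against WT cells, 1 of 10 genes passed, beside 30.1% of all genes tested. That gene was Mdc1, which was higher in Dux KO cells (log2 1.14, SE 0.12, edgeR adjusted p = 0.000206), at 2.20 times the WT level. Chek1 had 0.35 in the same comparison (edgeR adjusted p = 0.142) and 0.34 with the cell line as a replicate block (edgeR adjusted p = 0.0248). The authors' deposited table gives log2 1.12 for Mdc1 between Dux KO and WT cells with drug, positive where Dux KO is higher, and -1.56 for Chek1 between drug and vehicle in WT cells.

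**Figure D3:**
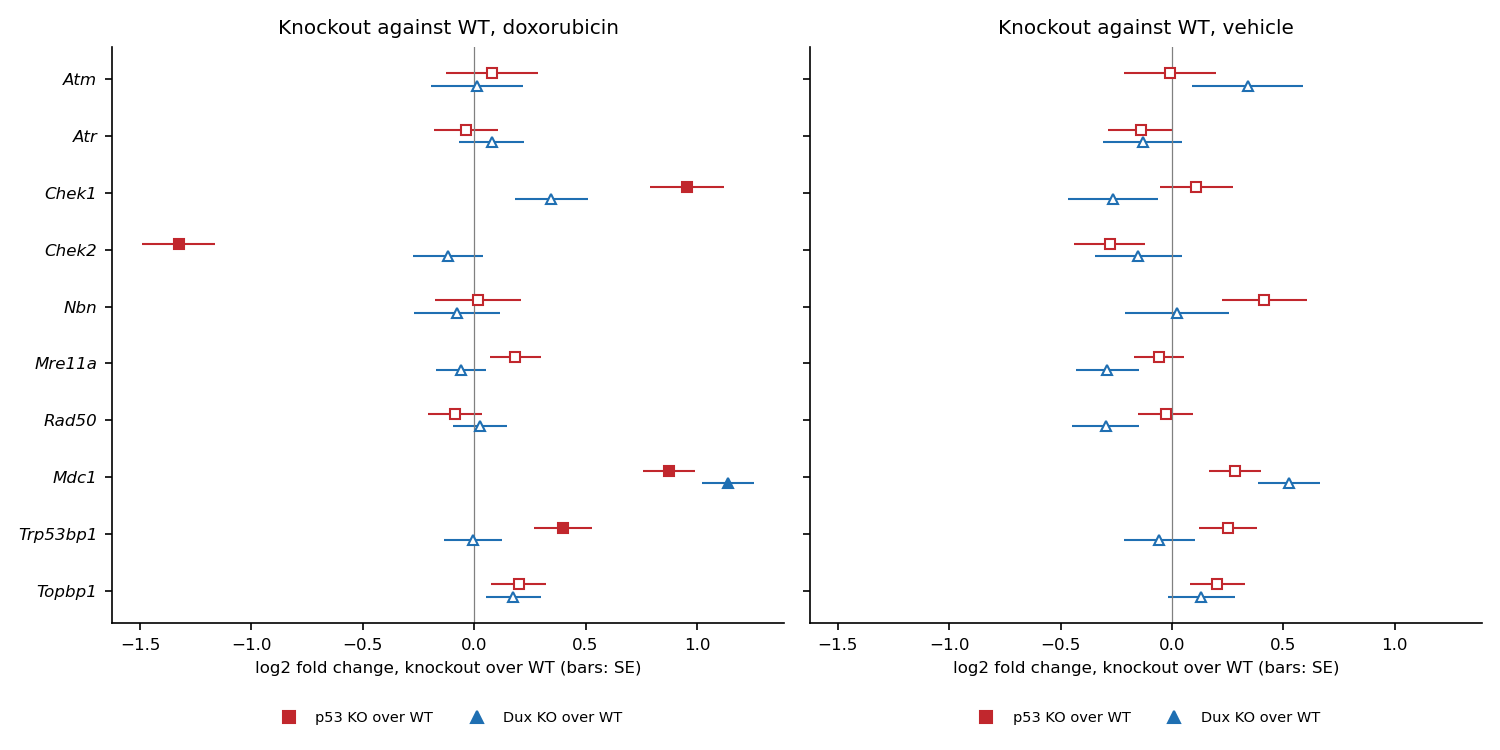
Log2 fold change of each knockout over WT cells, with doxorubicin on the left and vehicle on the right, with bars of 1 SE. Red squares are p53 KO and blue triangles Dux KO, and filled symbols passed the edgeR threshold. With drug, Chek2 stands at -1.33 and Mdc1 at 0.87 in p53 KO and Mdc1 at 1.14 in Dux KO. No gene passed with vehicle, where Mdc1 stands at 0.28 in p53 KO and 0.52 in Dux KO.

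The difference of responses was tested directly as an interaction. For p53 KO, 3 of 10 genes passed (Chek1, Chek2 and Mdc1), beside 20.2% of all genes tested. For Dux KO, 0 of 10 passed with edgeR and 0 with DESeq2, beside 5.25% of all. In edgeR 2 of the 10 (Chek1 and Mdc1) had an unadjusted p under 0.05 (1 in DESeq2). With the cell line as a replicate block, the Dux KO response compares 1 drug library with 1 control of the same line, so its calls are not counted. Both interactions share the WT libraries.

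The wider checkpoint pathway was read from 42 other genes of damage signalling, such as the 9-1-1 clamp, the claspin and Timeless proteins, the BRCA1-A complex and the CDC25 phosphatases. With drug, 9 fell and 1 rose in p53 KO cells (median log2 -0.29), 10 fell and 1 rose in Dux KO cells (median -0.20), and 21 fell and 4 rose in WT cells (median -0.41). Among all genes tested, 8.09% fell and 9.31% rose in p53 KO, 11.9% fell and 14.5% rose in Dux KO, and 23.4% fell and 29.0% rose in WT cells. Among genes with a mean of at least 5 CPM, the range in which all 42 lie, 15.1% fell in p53 KO, 20.1% in Dux KO and 37.0% in WT cells. With drug in p53 KO against WT cells 16 of the 42 were higher and 6 lower, where 43.7% of all genes tested differed. In Dux KO against WT cells with drug 10 were higher and 3 lower, where 30.1% of all genes tested differed. With vehicle, edgeR called 0 of the 42 for either knockout. DESeq2 called 3 for p53 KO and 5 for Dux KO, and 8 and 9 had an unadjusted p under 0.05 in edgeR. The p53 KO interaction passed in 12 of 42, with 7 positive and 5 negative, beside 20.2% of all genes tested. With the cell line as a replicate block both the list and the whole table gave more calls. In p53 KO cells with drug 22 of the 42 fell and 5 rose, beside 16.4% and 21.6% of all genes tested. The block gave 11 calls with vehicle for p53 KO, beside 12.04% of all genes, and 23 p53 KO interactions, beside 37.7%. For Dux KO the block sets 1 drug library against 1 control, so those counts are not given. RLE scaling turned the Dux KO against WT split with drug to 5 higher and 6 lower.

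Babam2, a subunit of the BRCA1-A complex, averaged 20.2 ± 1.00 CPM in p53 KO cells with drug and 44.0 ± 10.2 CPM with vehicle, against 76.7 ± 12 CPM in WT cells with drug and 36.4 ± 0.579 CPM with vehicle (SD, n = 2 each). It fell in p53 KO cells (-1.12, edgeR adjusted p = 0.00584) and rose in WT cells (1.08, edgeR adjusted p = 0.00113), a difference of -2.20 (edgeR adjusted p = 0.000811). Mad2l2, a shieldin subunit that acts with 53BP1, averaged 47.5 ± 5.16 CPM in p53 KO cells with drug and 44.7 ± 2.66 CPM with vehicle, against 9.42 ± 2.33 CPM in WT cells with drug and 34.7 ± 0.829 CPM with vehicle (SD, n = 2 each). Its WT fall was -1.88 (edgeR adjusted p = 6.38e-05), and the p53 KO interaction was 1.97 (edgeR adjusted p = 0.00134). Both genes also had a called Dux KO interaction, -1.58 for Babam2 (edgeR adjusted p = 0.0156) and 1.57 for Mad2l2 (edgeR adjusted p = 0.0186). The Dux KO interaction of Mad2l2 was lost with the recovered control 2 added (edgeR adjusted p = 0.0705), with control 2 in place of control 1 (0.94, edgeR adjusted p = 0.126), and without either Dux KO drug library or either WT control (edgeR adjusted p from 0.0669 to 0.0797). That of Babam2 was lost without either Dux KO drug library, either WT control or WT drug b (edgeR adjusted p from 0.0596 to 0.0861). Mad2l2 overlaps Draxin and Babam2 overlaps several non-coding loci, so these counts may be shared.

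Paxip1, which encodes the 53BP1 partner PTIP, averaged 77.9 ± 0.869 CPM in p53 KO and 160.4 ± 3.32 CPM in WT cells with drug (SD, n = 2 each), and its WT rise was 0.61 (edgeR adjusted p = 0.00398). Wrap53, which neighbours Trp53 and encodes a Cajal body protein, rose in WT cells (0.78, edgeR adjusted p = 0.000852). In Dux KO cells its log2 change was 0.83 against control 1 alone. With the recovered control 2 included, it averaged 113 ± 8.83 CPM with drug and 93.8 ± 43.1 CPM with vehicle there (SD, n = 2 each). The p53 KO interactions were -1.02 for Paxip1 (edgeR adjusted p = 0.00512) and -0.99 for Wrap53 (edgeR adjusted p = 0.00507). Adding the recovered library to the fit raised that p for Wrap53 to an adjusted 0.0827 in edgeR. Etaa1, an ATR activator that works apart from TOPBP1, fell in WT cells (-1.35, edgeR adjusted p = 9.72e-05) and in Dux KO cells (-1.13, edgeR adjusted p = 0.00162). Ppp2r5c, a regulatory subunit of the phosphatase PP2A, fell in p53 KO (-0.54, edgeR adjusted p = 0.018), Dux KO (-0.61, edgeR adjusted p = 0.0142) and WT cells (-1.33, edgeR adjusted p = 4.38e-05). Its p53 KO fall did not pass without p53 KO control 1 (edgeR adjusted p = 0.0521), nor its Dux KO fall without Dux KO drug 2 (edgeR adjusted p = 0.0832) or with control 2 in place of control 1 (-0.32, edgeR adjusted p = 0.129). Cdc25a, the phosphatase that CHK1 marks for destruction, averaged 156 ± 7.11 CPM in p53 KO and 66.1 ± 1.10 CPM in WT cells with drug (SD, n = 2 each). Its p53 KO interaction was 1.04 (edgeR adjusted p = 0.00522). Etaa1 also had a called p53 KO interaction, 0.89 (edgeR adjusted p = 0.0154), with a log2 change of -0.46 (edgeR adjusted p = 0.0546) in p53 KO cells.

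**Figure D4:**
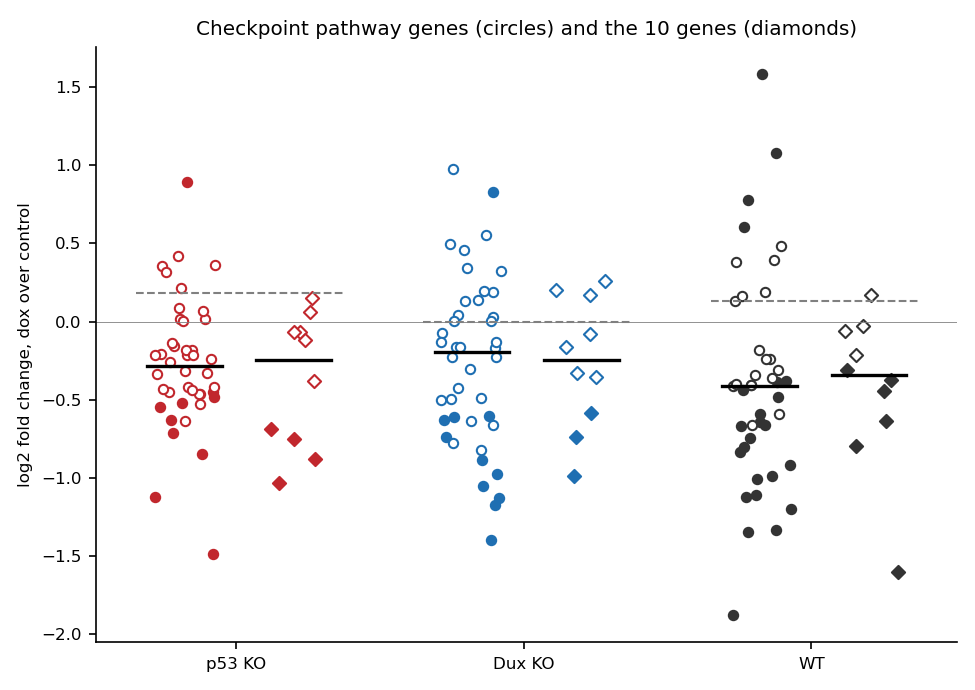
Log2 fold change of doxorubicin over vehicle in p53 KO, Dux KO and WT cells for the 42 other pathway genes (circles) and the 10 kinases and mediators (diamonds). Filled symbols passed the edgeR threshold, solid bars are the medians of each set and the dashed line is the median of all genes tested. The medians of both sets lie below the all-gene median in each genotype, at -0.41 and -0.34 in WT cells beside 0.13. The all-gene median depends on the genes kept and the scale. It was -0.16 in WT cells with limma on log2(FPKM + 1) over 14614 filtered genes.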

How the data were processed

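Poly(A) RNA was sequenced from 12 libraries. The authors deposited gene counts as whole numbers per Ensembl gene, with no normalization, and FPKM values for the same libraries. Log2 fold changes and adjusted p-values of the authors' own comparisons were deposited in the same table and are quoted only where named. TopHat2, DESeq and DESeq2, with build mm10, are named in the submitters' processing notes, while versions, counter, annotation and strand setting were not stated in the sources. The deposited counts and FPKM imply the gene span as length in 98.4% of 12241 genes (within 1%), while the sources do not state whether intronic reads were counted. In the 11 libraries used for tests, 26.4% to 33.4% of counts of at least 500 were odd, so counts are not independent single reads. Another 6 columns of group averages were not used.

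Low FPKM values of Dux KO control 2 (2810 values) were whole reads within 0.15 in 100% of cases, and its counts were recovered from them. In 2 libraries with known counts, 96.3% and 97.1% of genes came back within 1 count or 1%. The quasi-likelihood test of edgeR 4.0.16 (R 4.3.3) was run over 11 libraries with TMM scaling, filterByExpr (minimum count 10), a mean per group and Benjamini-Hochberg adjustment over 28643 genes, called under 0.05. The fit has 5 residual degrees of freedom, and all groups share 1 estimate of the spread. CPM is TMM-scaled. The design text calls the duplicates biological. Alternatives were RLE scaling, DESeq2 1.42.0, no filter, limma 3.58.1 on log2(FPKM + 1) or log2(FPKM + 0.1), the recovered library, a replicate block and leaving out each library. The fits were tested on simulated data.

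Each knockout's numbered libraries come from the same cell line, which pairs them: deviations of same-numbered libraries correlated at 0.62 in p53 KO and 0.22 in Dux KO cells over 28643 genes. WT libraries were never paired. With 11 libraries the block fits the Dux KO libraries exactly, so the blocked Dux KO response is 1 drug library over 1 control of line 1. All 10 members are named in every comparison. Of the pathway list, the 3 genes with the lowest adjusted p in each direction in WT cells and up to 6 with a called interaction are named. The members and lists were chosen with earlier results of these data known. Gene positions come from GENCODE M21, where 54495 of 54532 identifiers were found, and promoters from RefSeq.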

Additional observations from a re-analysis of the deposited data

Results flagged for a closer look

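The drug response of Chek2 differed between p53 KO and WT cells by -1.05 on the log2 scale (edgeR interaction, adjusted p = 0.0121), with falls in both p53 KO lines. The response of Chek1 differed by 0.85 (edgeR adjusted p = 0.0327) and that of Mdc1 by 0.59 (edgeR adjusted p = 0.0338), with p53 KO cells above WT cells in both. These are the members for which the difference between genotypes itself passed the test.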

How the results depend on the processing

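Of 21 member results called by edgeR, 8 kept their call under every alternative run: the Chek1 fall in WT and Dux KO cells, the Atr fall in WT cells, the Nbn fall in p53 KO cells, and, with drug against WT cells, Chek1, Chek2 and Mdc1 in p53 KO and Mdc1 in Dux KO cells. No called result changed sign, and over all alternatives these results kept their call 324 times and missed the threshold 96 times. With limma on FPKM (3 settings), 3 members passed in WT cells instead of 6, and 1 in p53 KO cells instead of 4. Without a filter, 1 passed in Dux KO cells instead of 3. RLE scaling gave 1 member in the p53 KO interaction instead of 3, as did unfiltered log2(FPKM + 1). Both FPKM scales with a filter gave 1 member in the Dux KO interaction instead of 0. The cell line as a replicate block gave 2 members in Dux KO against WT cells with drug instead of 1. Its counts for the Dux KO interaction and for Dux KO against WT cells with vehicle also moved and are not given. They rest on 1 Dux KO control, in a fit that leaves Dux KO no spread of its own. Among members, the block changed no call other than these and those given with the results. The replicate block with the recovered Dux KO control 2 gave 5 in the Dux KO response, among them the rises of Rad50 and Mdc1. It gave 1 in the Dux KO interaction and 1 in Dux KO against WT cells with vehicle. The cause of these moves was not tested. Leaving out 1 library at a time gave 2 to 5 members in the p53 KO response, 1 to 3 in the Dux KO response, 2 to 6 in the WT response, 0 to 4 in the p53 KO interaction, 0 to 1 in the Dux KO interaction and 0 to 1 in Dux KO against WT cells with vehicle. The setting without Dux KO control 1, with the recovered library in its place, was added after seeing the data. Its members in the Dux KO response include rises of Rad50 and Mdc1.

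RLE scaling moved the all-gene median by 0.10 in the WT response, -0.12 in the p53 KO interaction, and -0.11 and -0.10 in p53 KO and Dux KO against WT cells with drug. In WT cells edgeR called 8297 higher and 6700 lower of 28643 genes. Limma on log2(FPKM + 1) called 3391 higher and 4455 lower of 14614 filtered genes, and 8602 higher and 4694 lower of 42116 genes without the filter. With 2 libraries a group, small changes are the least certain.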
